A study of Mus musculus with 6 samples.

Results

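Proximal tubule genes were examined in glomerular preparations of dendrin knockout mice and of their littermate controls. The list holds 37 transporters, endocytic receptors, enzymes and other genes known for the proximal tubule, and 36 of them were measured. They were found as the probe sets that the array annotation assigns to a single gene of the list, and where a gene had several, that with the highest mean level over the 6 arrays stands for it. Together they account for 36 of the 18194 genes measured in this way, and for 68 of the 45101 probe sets on the array. No probe set was matched to Ggt1, which is not analysed here.

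Glomeruli of 3 homozygous dendrin knockout mice and 3 wild-type littermates were profiled at 13 months of age, with 1 Affymetrix whole-genome array for each mouse. The labels of all 6 mice give the background as 129S6SvEv/C57BL6, and the methods of the study describe repeated backcrossing onto C57BL/6. In the knockout line a germline allele, deleted in every cell of the body, carries eGFP and a lox-flanked neomycin resistance gene in place of the dendrin coding sequence. Ddn, the gene of dendrin, had a value (log2) of 3.80, 3.81 and 3.80 for the knockout and of 12.22, 12.81 and 12.31 for the control mice, a difference of -8.64 (limma, adjusted p = 0.0197), so each array matched its label. All levels are GCRMA values on a log2 scale, which are relative signals of 1 probe set and cannot be compared between genes. A gene with a mean under 4 on this scale is called dim, since the lowest value on the arrays is 2.2 and values near it lie at background. The mean covers all 6 arrays, so a gene near 4 can pass through its highest arrays alone. Ttc36, with a mean of 4.02, was above 4 only in knockout 2 and control 2.

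The proximal tubule follows directly on the glomerulus and takes back most of the glucose, amino acids, phosphate, bicarbonate and protein in the filtrate. Its cells carry sodium-coupled transporters on the apical brush border and exit pathways and organic anion transporters on the basolateral side, and they make glucose and burn fatty acids. Glomeruli are separated from the tubules by sieving and by magnetic beads, so that signal of these genes in a glomerular preparation can come with attached tubule fragments or from glomerular cells that use the same gene. In bulk RNA, fewer cells of a type and less RNA for each cell cannot be told apart.

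No proximal tubule gene passed the criterion of a fold over 1.5 with an unadjusted p under 0.05 in knockout against control glomeruli (limma, 0 of 36, against 0.247% of all genes in either direction). None passed an adjusted p under 0.05 (Benjamini-Hochberg over all probe sets, against 0.0055% of all genes), and 1 gene, Aqp1, had an unadjusted p under 0.05 by the probe set that stands for it. The point estimate was lower in the knockout for 23 genes and higher for 13, with a median difference of -0.0279 beside 0 over all genes. Among all genes, 5721 were lower, 7608 higher and 4865 equal. Of the 22 proximal tubule genes that were not dim, 11 had a lower and 11 a higher estimate. Their median difference was -0.0024, beside 0.03 over all genes that were not dim. For 35 of the 36 genes the estimated difference was under 1.5-fold, the exception being the dim gene Slc2a2.

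The widest differences lay among the control mice. The 22 proximal tubule genes that were not dim spanned a median of 1.69 (log2) over the 6 arrays, and all 10379 genes that were not dim a median of 0.332. Control 2 had the highest value, by more than 0.02, for 15 of these 22 genes, which compares with 20.2% of all genes that were not dim. Control 3 had the lowest value by the same margin for 14 of the 22, against 19.5% of all. Both held for 13 of the 22, against 5.9% of all. All 3 knockout mice lay within the range of the 3 controls for 16 of the 22, and for 2893 of all 10379 genes that were not dim.

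**Figure D1:**
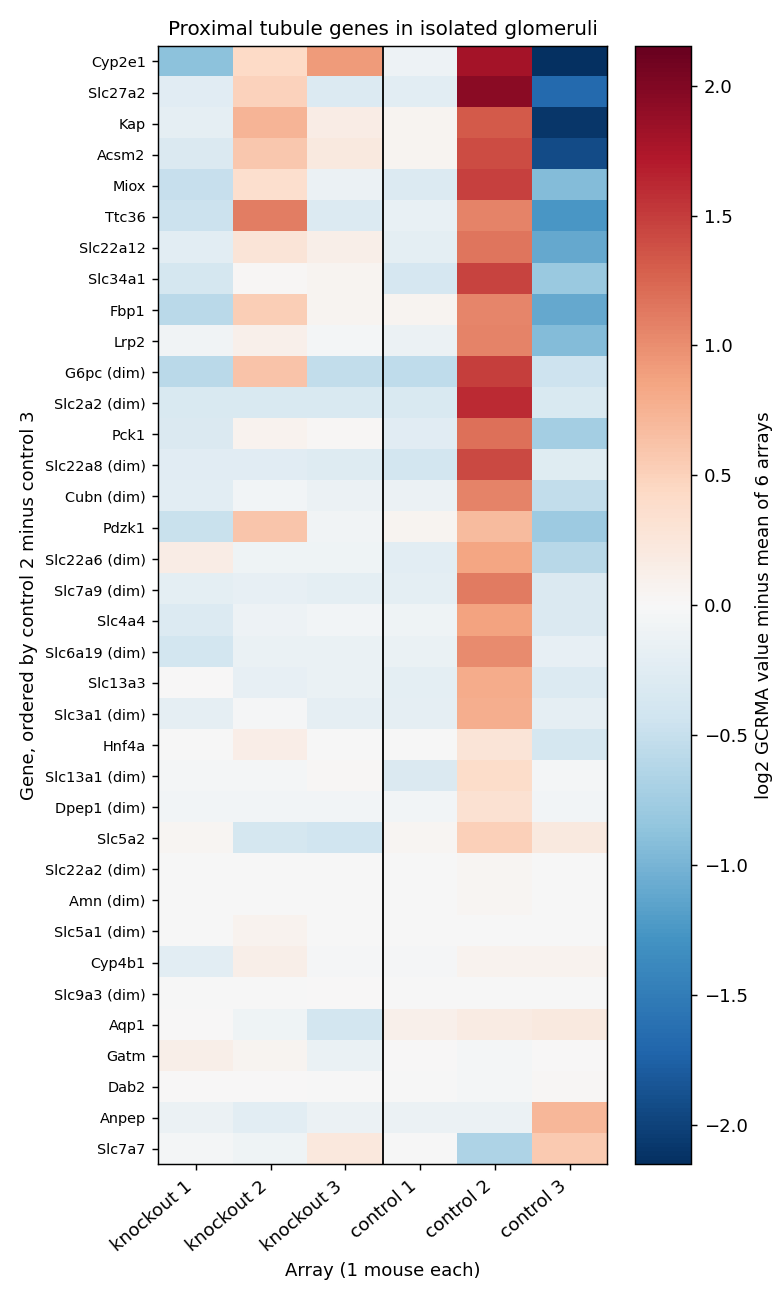
Values of the 36 measured proximal tubule genes on the 6 arrays (columns), each as log2 GCRMA value minus the mean of the gene over 6 arrays (colour), ordered by control 2 minus control 3. Control 2 is red and control 3 blue for most genes at the top, the 3 knockout mice are pale, and Slc7a7 at the foot runs the other way.

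The 9 metabolic enzymes, 8 of them not dim, varied widely between the controls, with a median span of 2.14 over the arrays. Cyp2e1, a cytochrome that oxidizes ethanol and small ketones, had values of 4.53, 5.85 and 6.33 in knockout and 5.31, 7.20 and 3.26 in control mice. Control 2 was 15.3-fold above control 3 on the unlogged scale, all 3 knockout mice lay between them, and the difference of 0.32 (standard error 1.21) was well within this spread. Slc27a2, a fatty acid transporter and acyl-CoA synthetase, read 6.44, 7.18 and 6.39 in the knockout mice against 6.45, 8.63 and 5.01 in the controls. Here, too, control 2 stood far above and control 3 far below the other 4 arrays, which lay between 6.39 and 7.18. The difference was -0.0192 (standard error 1.04). Acsm2, a medium-chain acyl-CoA synthetase of mitochondria, read 7.74, 8.63 and 8.26 in knockout and 8.12, 9.46 and 6.13 in control glomeruli. The groups overlapped, with a difference of 0.31 (standard error 0.963). The 3 probe sets of Acsm2 with signal above background each had control 2 highest and control 3 lowest.

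Miox, Fbp1 and Pck1 had the same order of the controls over a smaller range, and G6pc shared only its highest array. Miox, the oxygenase that begins the breakdown of myo-inositol, had 6.07, 6.93 and 6.44 in knockout and 6.27, 8.03 and 5.63 in control mice. Fbp1, fructose-bisphosphatase of gluconeogenesis, had 6.49, 7.59 and 7.12 against 7.12, 8.11 and 5.97, and its group means differed by 0.000262 (standard error 0.671). In Miox, Fbp1 and Pck1 the knockout mice lay inside the range of the controls. Pck1, the cytosolic carboxykinase that commits carbon to gluconeogenesis, read 6.83, 7.22 and 7.17 against 6.89, 8.32 and 6.40, a difference of -0.13 (standard error 0.568). G6pc, the phosphatase that releases free glucose, was dim, with 2.41, 3.60 and 2.47 against 2.45, 4.48 and 2.54. Control 2 was again highest, followed by knockout 2, and the other 4 arrays were near background.

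Apical transporters were mostly dim in these glomeruli: 3 of 9 were not. Slc34a1, the phosphate transporter of the brush border, had 6.78, 7.20 and 7.22 in knockout against 6.81, 8.62 and 6.37 in control glomeruli. Control 2 exceeded the other 5 arrays, which lay within 6.37 and 7.22, and the difference between groups was -0.20 (standard error 0.679). Slc22a12, the urate exchanger, read 4.76, 5.26 and 5.12 against 4.77, 6.14 and 3.88, a difference of 0.12 (standard error 0.651). All its knockout values lay between those of control 3 and control 2. Slc5a2, the glucose transporter of the early proximal tubule, had 5.51, 5.08 and 5.04 in knockout and 5.50, 5.97 and 5.68 in control mice. Knockout 1 overlapped with control 1, and the other knockout mice were below every control. The difference of -0.51 (standard error 0.195, 95% interval -1.03 to 0.02, unadjusted limma p of 0.0558, adjusted p = 1) was the largest of the 22 genes that were not dim. A dim probe set of Slc5a2 differed by -0.19 (standard error 0.272).

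The dim apical transporters were above background mainly in control 2. Slc3a1 and Slc7a9 encode the heavy and light subunit of the cystine transporter. Slc3a1 read 2.42, 2.58 and 2.42 in knockout and 2.41, 3.39 and 2.42 in control glomeruli. Slc7a9 read 2.66, 2.69 and 2.66 against 2.66, 3.99 and 2.56, so that in this pair only control 2 was above 3. The neutral amino acid transporter Slc6a19 had 3.82 in control 2 and between 2.41 and 2.67 elsewhere. Slc5a1, Slc13a1 and Slc9a3, which carry glucose, sulfate and sodium for protons, stayed under 3 on all arrays.

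Of 7 basolateral transporters 3 were not dim, Slc13a3, Slc4a4 and Slc7a7, and the last, described further on, had control 2 lowest and control 3 highest. Slc13a3, a dicarboxylate transporter, had 7.54, 7.35 and 7.39 in knockout and 7.31, 8.33 and 7.23 in control mice, a difference of -0.20 (standard error 0.346). Slc4a4, the sodium bicarbonate cotransporter, read 5.52, 5.69 and 5.74 against 5.71, 6.68 and 5.50, a difference of -0.31 (standard error 0.356). In Slc13a3 and Slc4a4 control 2 stood alone above the other 5 arrays. Their other probe sets with signal above background also had control 2 highest, and control 3 lowest. Among these a probe set of Slc4a4 read 6.34 in control 2 and 3.08 in control 3, over a span of 3.26. That of Slc13a3 was dim, with a mean of 3.73, beside 7.52 for the probe set that stands for the gene. Slc2a2, the glucose exit transporter, was at 2.22 on 5 arrays and at 4.15 in control 2, and this 1 array made up its difference of -0.64 (standard error 0.618). The organic anion transporter Slc22a8 likewise had 5.09 in control 2 and between 3.26 and 3.42 on the others. Slc22a6, of the same family, had 3.79 in control 2 and 2.35 in control 3, while Slc22a2, an organic cation transporter, was within 0.06 of the lowest value on all arrays.

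Of the protein uptake machinery, Lrp2 (megalin) and Cubn (cubilin), the receptors for filtered protein, had the same order of the controls. Lrp2 had 4.50, 4.69 and 4.54 in knockout and 4.45, 5.65 and 3.64 in control mice, with a difference of -0.00506 (standard error 0.565). The 3 knockout values fell within 0.19 of each other, between a high and a low control. Cubn was dim and read 2.50, 2.66 and 2.59 against 2.59, 3.79 and 2.20. Pdzk1, a scaffold of brush border transporters, had 3.93, 5.01 and 4.34 against 4.47, 5.10 and 3.64, a difference of 0.026 (standard error 0.509). Its knockout 2 value was close to that of control 2. Amn, the membrane anchor of cubilin, was within 0.05 of the lowest value on all arrays.

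Kap and Ttc36 varied between controls about as widely as the enzymes. Kap, an androgen-regulated protein of mouse proximal tubule, read 10.23, 11.15 and 10.57 in knockout and 10.48, 11.74 and 8.33 in control glomeruli. Control 2 was 10.7-fold above control 3, and the difference of 0.47 (standard error 0.994, 95% interval -2.22 to 3.15) left the direction unresolved. The other probe set of Kap gave a difference of 0.48 with the same array highest and the same lowest. Xist was at 2.20 on all arrays, and the Y-linked gene Kdm5d lay between 7.39 and 7.49, so that all 6 arrays had Y-linked signal. Knockout 2 was lowest in the Y-linked genes Eif2s3y (7.79, with 7.92 to 9.41 elsewhere) and Uty (7.03, with 7.43 to 7.61 elsewhere), and the groups overlapped in both. Ttc36, a protein of liver and kidney, had 3.56, 5.13 and 3.73 against 3.86, 5.09 and 2.76. Knockout 2 and control 2 were its highest arrays. Hnf4a, a transcription factor that directs proximal tubule genes, was steadier by the probe set that stands for it. This read 5.39, 5.54 and 5.39 in knockout and 5.39, 5.67 and 5.02 in control mice. Control 2 was highest and control 3 lowest here as well, over a span of 0.66 (difference 0.0842, standard error 0.189). A dim probe set of Hnf4a had 3.24 in control 2 and 2.32 to 2.39 elsewhere, over a span of 0.92. Its difference had the other sign, at -0.29 (standard error 0.293). The remaining probe sets of Hnf4a stayed at or near the lowest value.

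**Figure D2:**
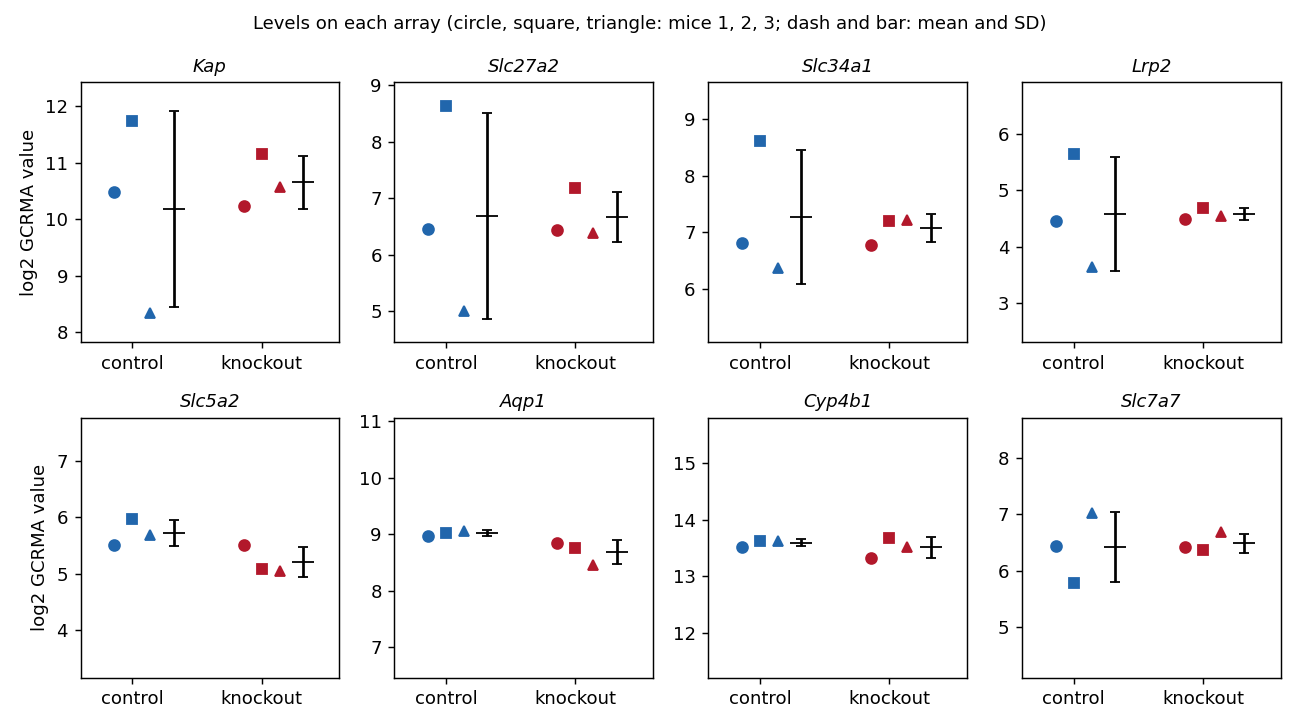
Log2 GCRMA values of 8 proximal tubule genes (y axis) in control (blue) and dendrin knockout mice (red), each point 1 mouse, with the group mean and SD (n = 3) beside it; every panel covers the same number of log2 units. Control 2 (square) is high and control 3 (triangle) low for Kap, Slc27a2, Slc34a1 and Lrp2, Cyp4b1 varies little, and Slc7a7 has control 2 lowest and control 3 highest.

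A set of members did not follow this order of the controls. Slc7a7, a basolateral exchanger of cationic amino acids that macrophages also express, read 6.41, 6.36 and 6.68 in knockout and 6.43, 5.78 and 7.01 in control glomeruli. It was highest in control 3 and lowest in control 2, and its other probe set, with 5.32 in control 3 and 3.50 in control 2, ran the same way. Its difference was 0.0753 (standard error 0.357). Dab2, an endocytic adaptor that podocytes also express, stayed between 10.68 and 10.74 on all arrays (difference 0.00819, standard error 0.0193). Another probe set of Dab2, not the one that stands for the gene, read 8.88, 8.91 and 9.00 against 9.01, 9.16 and 9.19. Its groups did not overlap, which held for 13.9% of all genes that were not dim. The difference of this probe set, -0.19 (standard error 0.0658, unadjusted limma p of 0.0386), was under 1.5-fold. Gatm, an enzyme of creatine synthesis, read 8.14, 8.08 and 7.87 against 8.03, 7.97 and 8.03. Cyp4b1, another cytochrome, read 13.32, 13.68 and 13.52 against 13.52, 13.62 and 13.62. Neither gene separated the groups or set control 2 apart from control 3.

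The brush border enzymes and the water channel varied in yet another way. Aqp1, the water channel of proximal tubule and of many endothelial cells, had 8.85, 8.75 and 8.45 in knockout and 8.96, 9.02 and 9.06 in control mice. All knockout mice had less than any control, and Aqp1 was, by the probe sets that stand for the genes, the only one of the 22 without overlap between the groups, against 13.9% of all genes that were not dim. The difference of -0.33 (standard error 0.12, 95% interval -0.65 to -0.01, limma p = 0.0471) had an adjusted p of 1, and the exact two-sided permutation test gave p = 0.1, the smallest that 3 mice against 3 allow. Over the 14 genes of the glomerular endothelium list, none of them dim, the median difference was -0.132, with a summed unlogged signal of 81600 to 87700 in knockout and 87300 to 93000 in control mice. The part of endothelial content in the result for Aqp1 was not tested. Anpep, an aminopeptidase of the brush border, had 4.46, 4.35 and 4.46 against 4.46, 4.45 and 5.30. Only control 3 stood out, and the difference was -0.31 (standard error 0.275). Dpep1, a dipeptidase, was at 2.25 on 5 arrays and at 2.65 in control 2.

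The direction of the comparison depended on single control mice. The median difference over the 22 genes that were not dim was -0.0024 with all arrays, 0.401 without control 2 and -0.434 without control 3. For Kap the difference was 1.25 without control 2 and -0.46 without control 3. For Slc27a2 it was 0.95 and -0.86, and for Slc34a1 0.48 and -0.65. The difference of Aqp1 was -0.33 and -0.31, and that of Slc5a2 -0.38 and -0.53. The unadjusted limma p of Aqp1 was no longer under 0.05 in either fit, at 0.114 without control 2 and 0.126 without control 3. Nor was it without control 1 (0.0888) or knockout 2 (0.0826), or with array weights (0.0691). With the further proximal tubule list (0.0889) or the loop and distal tubule list (0.124) as a covariate it was also over 0.05. The limma p stayed under 0.05 without knockout 1 (0.0299) or knockout 3 (0.0208) and with an intensity trend (0.0425). It also did with the filters, scalings and offset (0.0259 to 0.0473), and the SAM p was 0.0307. Over all 36 genes, the number lower in the knockout was 7 without control 2 and 31 without control 3, and no gene passed the criterion in either fit. Slc5a2 passed it without knockout 1, at -0.66 (limma, adjusted p = 1). The unadjusted limma p of Slc5a2, 0.0558 with all arrays, was under 0.05 with the filters (0.0294 and 0.0233), an intensity trend (0.049) and centred arrays (0.0471). The SAM p was 0.0376. The limma p was over 0.05 with array weights (0.0753), a further quantile normalization (0.0604) and the offset (0.0578). Without 1 array other than knockout 1 it was 0.056 to 0.15.

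**Figure D3:**
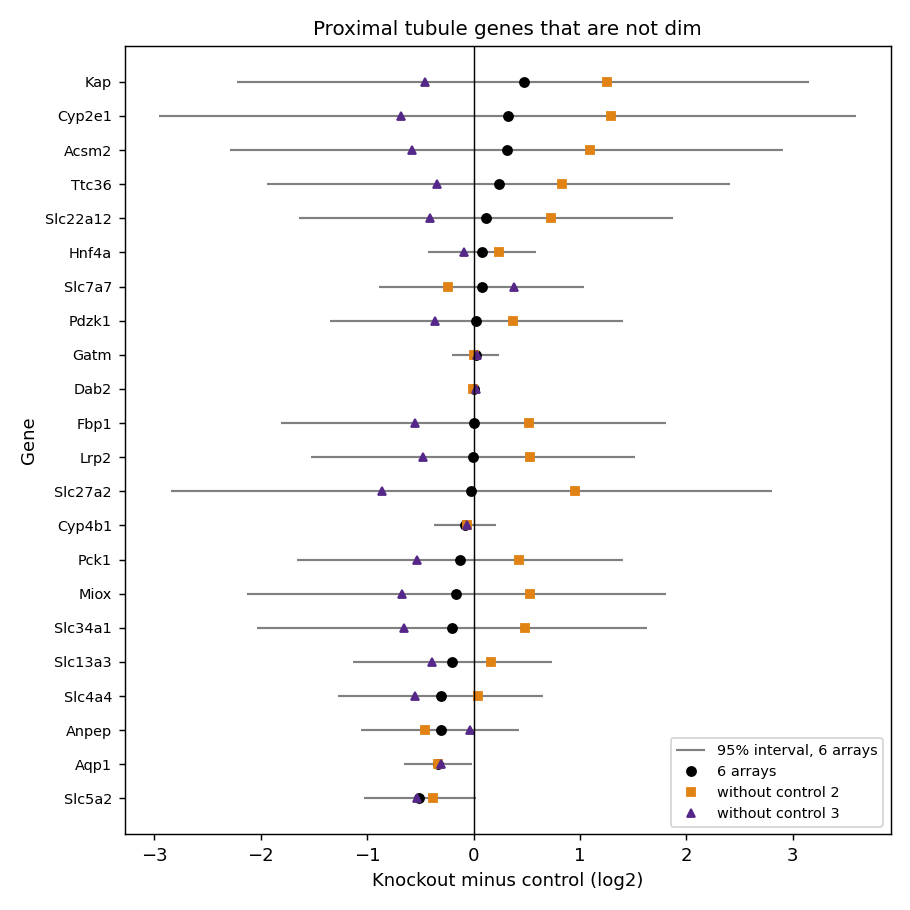
Knockout minus control difference (x axis, log2) of the 22 proximal tubule genes that were not dim, with the limma 95% interval over 6 arrays (line and black point) and the estimate without control 2 (orange square) or without control 3 (purple triangle). Intervals other than that of Aqp1 include 0, and for most genes the estimates without 1 control lie on opposite sides of 0.

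More proximal tubule genes, outside the list, also put control 2 highest and control 3 lowest, the low end by a small margin. These genes, too, were chosen with earlier results of these data known. The level of a list on an array is given as the median over its genes of the value minus the mean of the other 5 arrays. For the 22 members that were not dim this level was -0.27, 0.15 and -0.0371 for knockout and -0.0767, 1.15 and -0.91 for control mice. Of 60 further proximal tubule genes 54 were measured and 18 were not dim, and for these the level was -0.30, 0.13 and -0.0343 in knockout and -0.16, 0.97 and -0.38 in control mice. By more than 0.02, 13 of the 18 were highest in control 2, against 20.2% of all genes that were not dim. By the same margin 9 were lowest in control 3, against 19.5%. Over all 54 the level was 0.19 in control 2 and -0.0725 in control 3, beside -0.0662 in both knockout 1 and control 1. None of the 54 passed the criterion, with 30 lower, 13 higher and 11 equal. Slc47a1, an organic cation extruder of the brush border, read 4.19, 4.96 and 4.36 against 4.07, 5.84 and 2.95. Slc17a3, an anion transporter, read 4.03, 4.29 and 4.25 against 3.95, 6.27 and 3.83. Both were highest in control 2 and lowest in control 3.

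Genes of the later nephron were also highest in control 2, but not lowest in control 3. Of 25 genes of the loop of Henle, the distal tubule and the collecting duct 23 were measured and 10 were not dim, and all 10 had their highest value in control 2 and none its lowest in control 3. Their level was -0.46, -0.51 and -0.50 in knockout and -0.53, 1.98 and -0.26 in control mice. Slc12a3, the thiazide-sensitive cotransporter, had 10.34 in control 2 and between 6.63 and 7.33 elsewhere. The summed unlogged signal of the 23 genes ranged from 6660 to 23700 in the controls and from 7010 to 7760 in the knockout mice. For the 36 proximal tubule genes this sum, which is carried mainly by Cyp4b1 and does not follow the median, ranged from 16400 to 21900 and from 15100 to 19600. The share of either tubule segment in the differences between mice was not tested.

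Leukocyte genes ran opposite in the controls, as Slc7a7 did. Their 16 genes that were not dim, of 19 measured, had a level of 0.30, -0.23 and 0.86 in knockout and 0.30, -2.00 and 0.96 in control mice, with control 2 lowest and control 3 highest. C1qc, a complement subunit made by macrophages, read 10.51, 9.87 and 10.46 against 10.01, 6.35 and 10.78. Not all genes of the list had these extremes over the 6 arrays. Itgam and Ighm were lowest in knockout 2, at 3.66 and 6.92, beside 4.39 and 7.37 in control 2. C1qb, Adgre1, Csf1r and Lyz2 were lowest in control 2 but highest in knockout 3. The summed unlogged signal of the 19 genes ranged from 10100 to 51100 in the controls and from 28900 to 51000 in the knockout mice. Podocyte genes, which mark the labelled tissue, were well above background, with Nphs1 (nephrin) between 12.45 and 12.90. The level of the podocyte list, a median over 17 genes, stayed between -0.22 and 0.13 on the arrays, and that of the endothelial list, over 14 genes, between -0.16 and 0.14. The level of the mesangial and smooth muscle list, over 8 genes, stayed between -0.11 and 0.10, while single genes of it varied more. Among them Tagln, a smooth muscle actin-binding protein, passed the criterion with a difference of 0.68 (standard error 0.243, unadjusted limma p of 0.0458). Tagln did not pass an adjusted p under 0.05, and 0.247% of all genes passed the criterion in either direction. The part of leukocyte content in the levels of the proximal tubule genes was not tested.

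**Figure D4:**
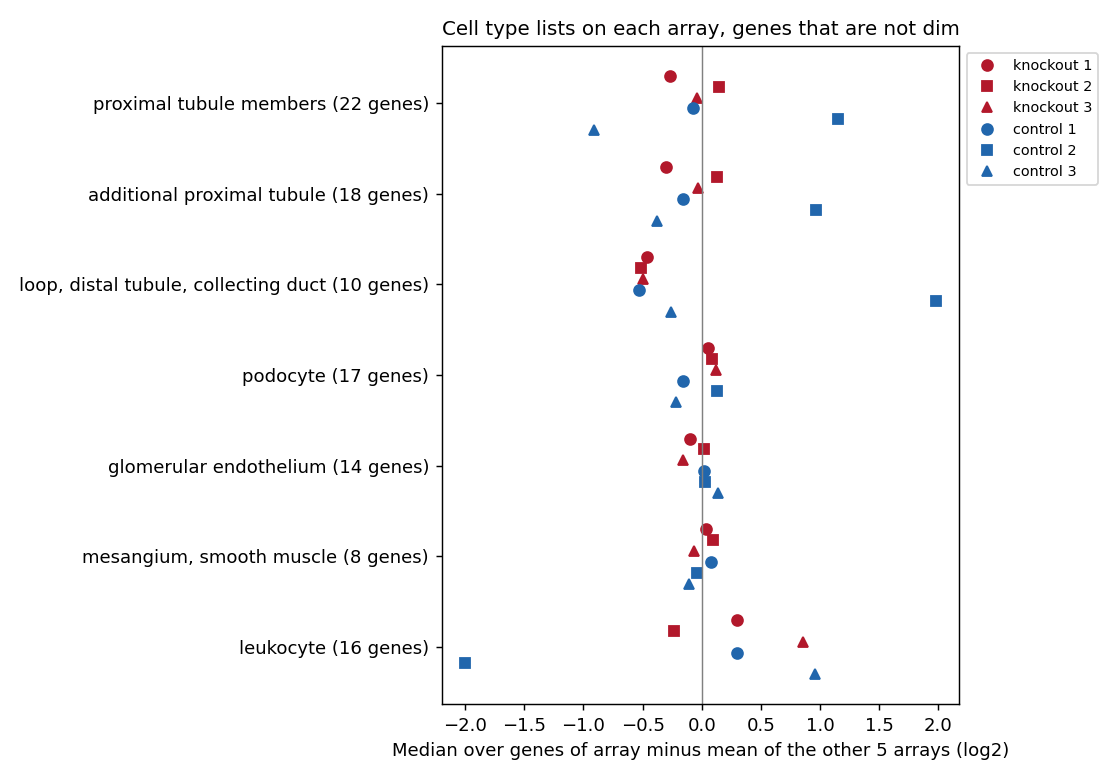
Level of 7 cell type lists on each array (x axis, median over genes of the log2 value minus the mean of the other 5 arrays), for genes that were not dim, with knockout mice in red and controls in blue, each point 1 mouse. Control 2 lies at 1.15, 0.97 and 1.98 in the tubule lists and at -2.00 in the leukocyte list, and the podocyte, endothelial and mesangial lists stay near 0 on all arrays.

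Of 6 measured markers of tubule injury, 4 were dim. Havcr1, which injured proximal tubule cells switch on, was at 2.20 on all 6 arrays and Krt20 at 2.25, which is at the floor of the array, where a fall could not be seen. Clu, a chaperone that rises in injured tubules, read 11.35, 11.40 and 11.60 in knockout and 11.74, 12.29 and 11.80 in control mice. Its groups did not overlap, which held for 13.9% of all genes that were not dim, and control 2 was highest. The difference of Clu was -0.49 (standard error 0.182, unadjusted limma p of 0.0512) and did not pass an adjusted p under 0.05. Vcam1, an adhesion molecule that endothelial and parietal cells also make, had its lowest value, 11.61, in control 2 and its highest, 13.23, in control 3. None of the 6 passed the criterion.

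Promoters were searched for the sites of the factors best known for proximal tubule genes. Control 2 was highest and control 3 lowest, by more than 0.02, for 13 of the 22 members that were not dim and 16 of all 36. The same held for 5.9% of all genes that were not dim and for 655 of all 18194 genes. A link of the sites to this order of the mice was not tested. RefSeq promoters (GRCm38.p6, 250 bases before to 50 after the start) were matched for 34 of the 37 listed genes. The Hnf4 motif CAAAGTCCA, on either strand, occurred in 2 of the 34 (5.88%), those of Slc3a1 and Pdzk1, against 0.555% of all 27025 genes with a promoter and 0.475% of all 32851 promoters. The Hnf1 motif GTTAATNAT, in which N is any base, searched in the same way, occurred in 1 of the 34 (2.94%), that of G6pc, against 0.94% of all genes and 0.801% of all promoters. No member promoter held both motifs, and with 1 to 2 matches these shares are descriptions. Among 43 of the further proximal tubule genes, 4 held the Hnf4 motif and 1 the Hnf1 motif. The motif of Pdzk1 lies after the start. The 250 bases before the start are given for the members with a match in them, with the motif in capitals. That of Slc3a1 lies at chr17:85028097-85028346 and that of G6pc at chr11:101367466-101367715, both on the plus strand, and the motifs begin 39 and 221 bases before the start.
Slc3a1: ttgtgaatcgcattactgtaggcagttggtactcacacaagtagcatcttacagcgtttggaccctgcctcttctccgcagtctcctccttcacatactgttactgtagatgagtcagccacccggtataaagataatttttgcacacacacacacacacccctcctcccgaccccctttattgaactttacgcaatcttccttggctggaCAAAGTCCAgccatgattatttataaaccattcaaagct
G6pc: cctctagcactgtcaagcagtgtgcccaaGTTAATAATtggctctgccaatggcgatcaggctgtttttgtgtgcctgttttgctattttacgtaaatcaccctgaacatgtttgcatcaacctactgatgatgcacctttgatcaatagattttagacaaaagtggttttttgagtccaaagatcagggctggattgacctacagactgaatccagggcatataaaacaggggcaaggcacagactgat
Both genes were dim and highest in control 2, Slc3a1 with 3.39 and G6pc with 4.48. In neither was control 3 lowest: Slc3a1 had 2.42 there and 2.41 in control 1, and G6pc 2.54 there and 2.41 in knockout 1.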

How the data were processed

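Total RNA of isolated glomeruli, about 100 ng for each of 6 mice, was amplified, labelled and hybridized by the authors to 1 array per mouse. The deposited values are log2 intensities of 45101 probe sets, processed by the authors with GCRMA (version 2.30.0, per the labels), which corrects background by probe sequence, normalizes the arrays to 1 distribution and summarizes probes. Low signal is thereby drawn to a floor, which compresses the folds of dim genes. Only probe sets with a single gene (34958) stood for a gene. A limma model (version 3.58.1, R 4.3.3, lmFit and eBayes, two-sided, no filter) of genotype was fitted to all probe sets, with 4 residual and 0.312 prior degrees of freedom and Benjamini-Hochberg adjustment, and was tested on simulated data. The fold and p criterion follows the methods of the study, and SAM, which they name, was written out as an alternative. P values weigh the difference between groups against the spread within groups. With 1 array per mouse, this spread holds mouse, preparation and array together.

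The members and all lists were chosen with earlier results of these data known. Values on every array were planned, in each role group, for the 3 members with the largest difference that were not dim, and for those without overlap, the 3 highest and 3 lowest by Pearson correlation to the further proximal tubule list, Hnf4a and, from other lists, the 3 genes of largest range. Cyp4b1, Slc27a2, Fbp1, Pck1, G6pc, Cubn, Slc7a9, Slc2a2, Nphs1, Slc47a1, Slc17a3 and other genes beyond this rule were named after their values had been seen. Lists are described by counts and medians. Alternatives were SAM, an intensity trend, filters, scalings, an offset of 16, array weights, other probe set choices, tubule lists as covariates, the replicate block and leaving out each array.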

Additional observations from a re-analysis of the deposited data

How the results depend on the processing

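No member passed an adjusted p under 0.05 in any of the alternatives run, and none passed the criterion except Slc5a2 without knockout 1, so that leaving out 1 array gave 0 to 1 member past it. The number of members lower in the knockout, 23 of 36, was 7 without control 2 and 31 without control 3 (the range of these fits), 11 of 22 when only members with a mean of at least log2 4 were kept, 7 with the loop and distal tubule list as a covariate and 16 with array weights. The median difference went from -0.419 without control 3 to 0.136 with the loop and distal tubule covariate. Of 359 alternative differences of the 19 members named by the rule, 46 had the other sign, and the cause was not tested. The member level of control 2, 1.03, was 0.473 with an offset of 16 and 0.823 with the mean of all probe sets of a gene, and that of control 3, -0.37, was -0.178 with the offset and -0.912 over members that were not dim. Centring the arrays added 0.0192 to every difference. Mice with the same number deviated together with correlations of 0.0949, 0.352 and 0.248 over 19619 probe sets. All were positive, but mice with different numbers were not compared, so these values do not settle whether the numbers pair the mice. The main fit did not pair them. With the replicate block 23 members were lower, the median difference was -0.0279 and no member passed the criterion. In that fit the unadjusted limma p of Aqp1 was 0.123 and Ddn differed by -8.64 with an adjusted p of 0.461. The difference of Ddn stayed between -8.76 and -8.46 when 1 array was left out, but its adjusted p, 0.0197 with all arrays, was 0.0896 by SAM (-8.64) and over 0.05 in the fits without any 1 array other than control 2 (0.0771 to 0.192, and 0.000552 without control 2). With 3 mice in each group and standard errors near 1, differences of 1.5-fold could not be resolved for the most variable members. By the probe sets that stand for the genes, the limma 95% interval stayed within 1.5-fold for Dab2 (-0.04 to 0.06). It also did for Gatm (-0.2 to 0.24) and Cyp4b1 (-0.37 to 0.21), but not for the other members that were not dim. The 14 dim members lie too close to background to show a fall.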
